A study of Mus musculus with 2 samples.

Results

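The genes described here are 34 genes of the SRF and actin cytoskeleton programme, out of 21774 protein-coding genes in all. They are the transcription factor gene Srf and 33 others: genes for actins, actin-binding proteins, myosin II subunits and LIM proteins, and Filip1l. They were listed by name. KMT2D peaks were assigned to a gene when their summit lay inside it or within 50 kb of it on the mouse build mm10. All 34 genes were found in the gene table. The genes were chosen by name for their roles, with the presence and fold of their KMT2D peaks in these data already known, so the presence of peaks at these genes is given as a description and carries no test.

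The peaks come from chromatin immunoprecipitation and sequencing of KMT2D in HT22, an immortalised mouse hippocampal cell line. A library precipitated with an anti-KMT2D antibody (Millipore ABE1867) and an input library, which had no antibody, were both made from wild-type cells labelled as a wild-type clone, plated at equal density, sampled at 70% confluency and given no treatment that the labels name. Cells with the SET methyltransferase domain of KMT2D deleted also belong to the study and are not analysed here. There were no replicates, since each kind of chromatin gave 1 library, so intervals on a fold cover counting error only, and in bulk chromatin more cells with KMT2D at a site and more KMT2D per cell cannot be told apart. Expression was not measured in the data used here, so the hippocampal label was not checked against marker genes.

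KMT2D is a histone H3 lysine 4 methyltransferase that is best known for its action at enhancers. SRF binds a DNA element called the CArG box, with cofactors of the MRTF family that are held back by monomeric actin and released as filaments form, or with ternary complex factors that respond to growth signals. Its best known targets are genes for the actin cytoskeleton and immediate early genes. In smooth muscle and myofibroblasts a subset of these targets, such as Acta2, Cnn1 and Tagln, marks the contractile state, while relatives such as Actg1, Cnn2 and Tagln2 are expressed in many cell types.

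Of the 34 genes, 10 had a KMT2D summit within 2 kb of an end of the gene, 13 had only more distant peaks (distal peaks, inside the gene or within 50 kb), and 11 had none. Among all protein-coding genes, 5.08% had a gene-end peak (1107 of 21774), 19.8% had distal peaks only and 24.9% had any peak, against 29.4%, 38.2% and 67.6% of the listed genes. The median length of the listed genes was close to that of all protein-coding genes (17204.5 and 17219 bp). Together they drew on 38 distinct peaks, 11 at gene ends and 27 distal. The presence of a peak was known when the list was made, so these shares are not evidence of enrichment. Where a gene had no peak in the list, KMT2D was not called there at this depth, which does not show that it was absent. At the 2 kb limit, the farthest gene-end summit was that of Actg1, 1901 bp from the gene, and the closest summits on the other side of it were at 2574 bp in Tpm1 and 2605 bp in Pdlim7. At the 50 kb limit, the farthest assigned summit lay 47674 bp from Cnn3, and the nearest one left out lay 50565 bp from the same gene.

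**Figure D1:**
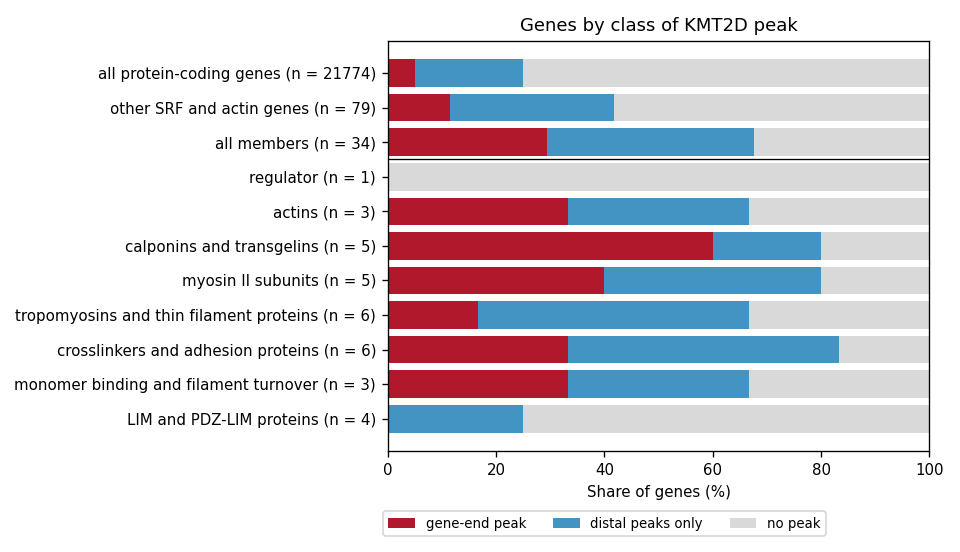
Share of genes (x axis, %) with a KMT2D gene-end peak, with distal peaks only and with no peak, for all 21774 protein-coding genes, for 79 other SRF and actin genes, for the 34 listed genes and for these split by role (Filip1l, which has no role group, is only in the total). Calponins and transgelins had the highest share of gene-end peaks, 3 of 5 genes, and the LIM and PDZ-LIM protein genes had none in 4. The 34 were chosen with their peaks known and are not among the 79.

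Of the 10 genes with a gene-end peak, 9 had it at the start of the gene and Lmod1 had it at the finish. Strand was taken from a RefSeq promoter table. Of the protein-coding genes there, 904 had a gene-end peak, of which 733 (81.1%) had it at the start only and 153 at the finish only. Of the 10 start-side summits of the listed genes, 6 lay within 500 bp of the nearest listed transcription start, 7 lay upstream of it and 3 downstream. The farthest were 1901 bp upstream and 1443 bp downstream. The fold is the authors' ratio of ChIP pileup plus 1 to background plus 1 at the summit. Its median over the 11 gene-end peaks was 4.03 (range 2.29 to 6.30), with 7 of the 11 above the median of all 1006 gene-end peaks, 3.72. The 27 distal peaks had a median fold of 4.55 (range 2.80 to 7.76), against 4.73 for all 2700 peaks at no end of a protein-coding gene. Of the 27, 6 lay within 2 kb of an end of another protein-coding gene, with a median fold of 3.98, and the other 21, which are among the 2700, had a median of 4.67. Backgrounds at the 38 peaks reached at most 14.3 fragments.

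**Figure D2:**
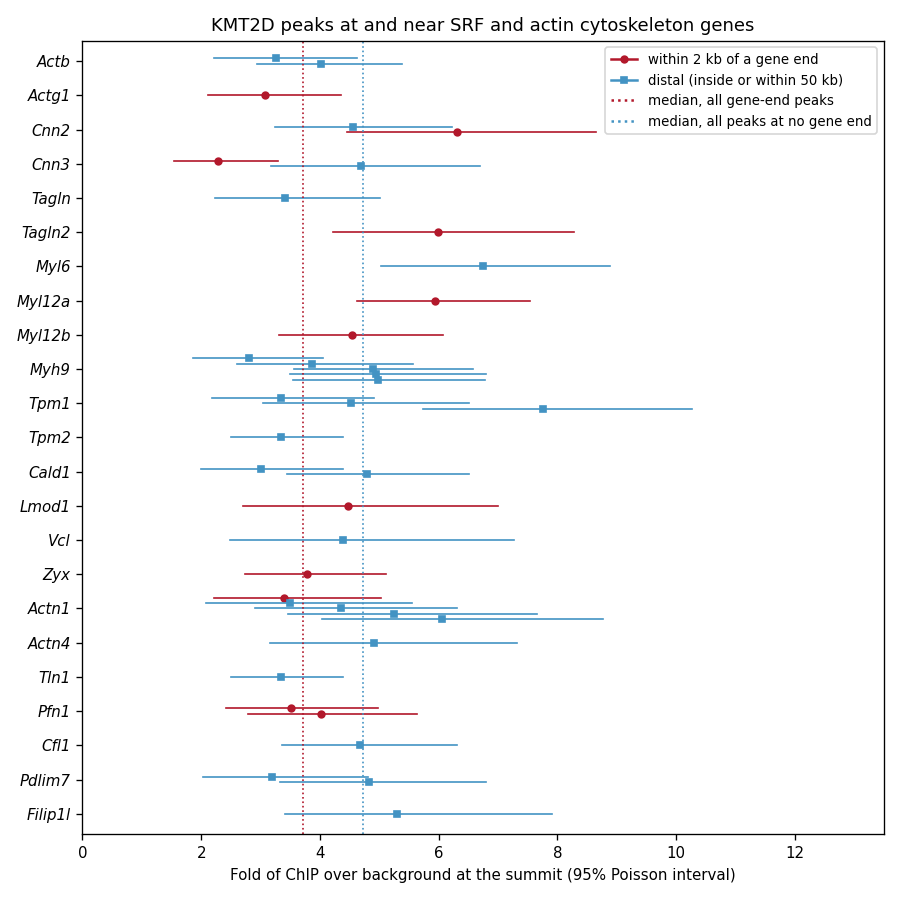
Fold of ChIP over background at the summit (x axis) of every peak assigned to the listed genes, with exact 95% Poisson intervals of the pileup, gene by gene; circles are gene-end peaks and squares are distal peaks, and a gene-end peak of Myl12a or Myl12b is drawn only at its own gene. Dotted lines mark the medians of all gene-end peaks, 3.72, and of all peaks at no gene end, 4.73; Cnn3 had the lowest fold, 2.29, and a distal peak of Tpm1 the highest, 7.76.

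The regulator itself carried no KMT2D peak. Srf, on chromosome 17 from 46546838 to 46558267, had no summit inside the gene or within 50 kb, and the nearest summit lay 272921 bp from the gene. Its promoter window, from 250 bases before to 50 bases after the transcription start, is shown because it holds a pair of CArG boxes, in capitals, that begin 82 and 62 bases before the start. It is given 5′ to 3′ on the strand of the gene, as are all sequences below, from RefSeq on GRCm38.p6, the same assembly as mm10.
Srf (chr17:46556113-46556412, minus strand): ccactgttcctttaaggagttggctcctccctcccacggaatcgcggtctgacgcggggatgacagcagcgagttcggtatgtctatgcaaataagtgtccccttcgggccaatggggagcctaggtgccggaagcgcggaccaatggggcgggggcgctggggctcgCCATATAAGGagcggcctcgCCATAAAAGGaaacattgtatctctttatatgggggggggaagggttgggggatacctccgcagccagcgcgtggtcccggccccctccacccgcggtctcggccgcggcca

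Among the actin genes, Actg1 had a gene-end peak, Actb had distal peaks only and Acta2 had none. Actg1 encodes cytoplasmic gamma actin. Its peak, at chr11:120350259-120350549, had 30 ChIP fragments over a background of 9.08, a fold of 3.08 (95% Poisson interval 2.11 to 4.35), and was above 25.1% of all gene-end peaks. The summit was nearer to the long non-coding RNA gene 0610009L18Rik, at 794 bp, than to Actg1, at 1901 bp. The Actg1 promoter window is shown because it holds a CArG box, in capitals, 90 bases before the start and 1815 bp from the summit.
Actg1 (chr11:120348446-120348745, minus strand): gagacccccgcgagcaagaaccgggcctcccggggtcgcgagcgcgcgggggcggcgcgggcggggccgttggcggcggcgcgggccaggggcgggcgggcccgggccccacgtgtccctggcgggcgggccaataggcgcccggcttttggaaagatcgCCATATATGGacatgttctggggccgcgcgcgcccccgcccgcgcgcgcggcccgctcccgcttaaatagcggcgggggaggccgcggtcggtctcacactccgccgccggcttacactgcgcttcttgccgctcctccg

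Actb, which encodes cytoplasmic beta actin, had summits 12985 and 21412 bp outside the gene. The nearer had 43 fragments over 9.94, a fold of 4.02 (2.93 to 5.38), and the other had 29 over 8.22, a fold of 3.26 (2.22 to 4.63). These intervals overlap, and Actb was the nearest protein-coding gene to both summits. The next peak in that direction, 51404 bp from Actb and so just beyond the limit, lay at Fscn1, which encodes the filament-bundling protein fascin, with a fold of 5.57. Acta2 encodes the alpha actin of smooth muscle, and no summit lay within 50 kb of it.

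Calponins and transgelins, related proteins that bind along actin filaments, held 3 gene-end peaks in 5 genes. The Cnn2 peak, at chr10:79989924-79990199, had the highest fold among the gene-end peaks of all the listed genes. It had 36 fragments over a background of 4.87, a fold of 6.30 (4.46 to 8.66), above 90.8% of gene-end peaks, with the summit 1443 bp inside the gene from its start. The Tagln2 peak, at chr1:172500933-172501205, was next, with 35 fragments over 5.003, a fold of 5.997 (4.23 to 8.28) and its summit 845 bp downstream of the start. Both summits thus lay within the transcribed region rather than in the promoter window. The Cnn2 and Tagln2 intervals overlapped each other. Cnn3 had the peak of lowest fold among the 38, at chr3:121426102-121426396. Its 27 fragments stood over a background of 11.2, the highest of the 11 gene-end peaks, which gives a fold of 2.29 (1.54 to 3.29), above 1.29% of gene-end peaks. Its interval did not overlap those of Cnn2 and Tagln2. The part of the higher background in the low fold was not tested. The −log10 q of the Cnn3 peak, 1.497, was the lowest of the 38 and near the lowest of the whole list, 1.32. Cnn1, the calponin of smooth muscle, had no peak, and Tagln, the smooth muscle transgelin, had 1 distal summit 22988 bp outside the gene and 193 bp from an end of Pcsk7, with a fold of 3.42 (2.24 to 5.02).

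The promoter windows of Cnn2 and Cnn3 are shown side by side because they differ in both features. In Cnn2 the capitals mark a CArG box that begins 56 bases before the start, in a window with no KMT2D summit. In Cnn3, whose window holds no CArG box even with 1 mismatch allowed, the capitals mark the 11 bases centred on the KMT2D summit, 237 bases before the start.
Cnn2 (chr10:79988350-79988649, plus strand): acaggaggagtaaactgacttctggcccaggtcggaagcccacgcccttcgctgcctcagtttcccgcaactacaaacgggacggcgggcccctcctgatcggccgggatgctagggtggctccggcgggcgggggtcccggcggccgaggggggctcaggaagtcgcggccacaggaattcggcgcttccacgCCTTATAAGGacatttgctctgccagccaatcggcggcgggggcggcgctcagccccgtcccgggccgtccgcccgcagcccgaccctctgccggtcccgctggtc
Cnn3 (chr3:121426291-121426590, plus strand): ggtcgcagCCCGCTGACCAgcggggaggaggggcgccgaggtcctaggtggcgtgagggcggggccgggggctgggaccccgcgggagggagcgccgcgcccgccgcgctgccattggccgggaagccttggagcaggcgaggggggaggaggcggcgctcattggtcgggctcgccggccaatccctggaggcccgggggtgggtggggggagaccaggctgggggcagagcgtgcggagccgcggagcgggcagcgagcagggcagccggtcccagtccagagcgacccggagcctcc

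Of 5 genes for subunits of non-muscle and smooth muscle myosin II, the motor that pulls on actin filaments, 2 had gene-end peaks. Myl12a and Myl12b encode closely related regulatory light chains and are neighbours on chromosome 17, 3276 bp apart, each with a start peak of its own. The Myl12a peak, at chr17:71002143-71002481, had the highest pileup of the 38 peaks, 66 fragments over a background of 10.3. Its fold was 5.95 (4.62 to 7.54), and its pileup was above that of 95.8% of all gene-end peaks. The summit lay 214 bp downstream of the start. The Myl12b peak, at chr17:70990393-70990890, had 43 fragments over 8.69 and a fold of 4.54 (3.31 to 6.08), with the summit 175 bp upstream of the start. The summits were 11628 bp apart and the intervals of the folds overlapped. Each of these peaks is also a distal peak of the neighbouring gene.

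Of the other myosin genes, Myh9, which encodes a non-muscle myosin heavy chain, had 5 distal peaks with folds from 2.80 to 4.97 and none at an end. A pair of them lay inside the gene, 21601 and 43303 bp from its start, with folds of 3.87 (2.60 to 5.57) and 4.90 (3.56 to 6.58). The peak of highest fold, 4.97 (3.55 to 6.77), lay 31472 bp outside and only 66 bp from an end of Apol9b. Its interval overlapped those of both peaks inside the gene. Myl6, the essential light chain, had 1 distal peak with a fold of 6.75 (5.03 to 8.88), but its summit was 36 bp from the tRNA gene n-TScga2 and 682 bp from Smarcc2. Myl9, the regulatory light chain of smooth muscle, had no peak.

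Tropomyosins run along actin filaments and set which other proteins can bind them. Tpm3 and Tpm4 had no peak. Tpm1 had the highest fold among the distal peaks, 7.76 (5.74 to 10.3), from 47 fragments over 5.19 at chr9:66988974-66989436. A second summit lay 910 bp away with 27 fragments and a fold of 4.52 (3.04 to 6.51). These summits lay 33331 and 32421 bp beyond the finish of Tpm1 and nearer to Lactb, at 13775 and 14685 bp. A peak of lower fold lay inside Tpm1, 2574 bp from its finish, with a fold of 3.34 (2.19 to 4.90). Tpm2 and its neighbour Tln1, which encodes the adhesion protein talin, shared 1 distal peak with a fold of 3.34 (2.496 to 4.38). That summit lay 125 bp from the small RNA gene Rmrp and 430 bp from Ccdc107. Cald1, which encodes caldesmon, an actin and myosin binding protein, had a peak 11584 bp inside the gene from its start with a fold of 4.79 (3.44 to 6.504). Its other peak, 5070 bp outside, lay 107 bp from Agbl3. Lmod1 encodes leiomodin, which starts new actin filaments in smooth muscle. Its peak, at chr1:135367018-135367319, lay 883 bp inside the finish of the gene and 42369 bp from its start, with 17 fragments over 3.03 and a fold of 4.47 (2.71 to 7.01).

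Among genes for filament crosslinkers and adhesion proteins, Zyx and Actn1 had gene-end peaks, Vcl, Actn4 and Tln1 had distal peaks only and Flna, which encodes filamin A, had none. Zyx encodes zyxin, a protein of focal adhesions and stress fibres. Its peak, at chr6:42349578-42350555, was the widest of the 38, 978 bp, and wider than 99.4% of all gene-end peaks, with 40 fragments over 9.83 at the summit and a fold of 3.79 (2.73 to 5.12). Its summit lay 43 bases upstream of the transcription start listed for Zyx, the closest to a start among the listed genes. Actn1 encodes alpha-actinin 1, a crosslinker of stress fibres. It had 5 peaks, the largest number for a listed gene together with Myh9, where 0.588% of protein-coding genes had 5 or more (128 of 21774). Actn1 and Myh9 are 92879 and 81591 bp long, against a median of 17219 bp for all protein-coding genes. The part of length in these counts was not tested. The Actn1 start peak, at chr12:80260657-80260862, had 23 fragments over 6.05 and a fold of 3.40 (2.21 to 5.03). The other 4 lay inside the gene within 9473 bp of each other, 30175 to 39648 bp downstream of the start. Their folds ran from 3.497 (2.09 to 5.55) to 6.06 (4.03 to 8.77), and all 5 intervals overlapped. Exon and intron positions were not used here. Actn4, for alpha-actinin 4, had 1 summit 9357 bp inside the gene from its start with 22 fragments and a fold of 4.91 (3.16 to 7.32). Vcl, for the adhesion protein vinculin, had 1 summit 9190 bp inside with 13 fragments over 2.19, the lowest pileup of the 38, and a fold of 4.39 (2.48 to 7.28). That background equals the lowest solved for any peak, so the fold rests on a background at the floor of the list.

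The promoter windows of Zyx and Myl12b are shown because the KMT2D peak interval covered all of their 300 bases. The capitals mark the 11 bases centred on the summit. Neither window holds a CArG box, with or without 1 mismatch. The Zyx window holds an AP-1 motif, TGAGTCA, that begins 121 bases before the start.
Zyx (chr6:42349578-42349877, plus strand): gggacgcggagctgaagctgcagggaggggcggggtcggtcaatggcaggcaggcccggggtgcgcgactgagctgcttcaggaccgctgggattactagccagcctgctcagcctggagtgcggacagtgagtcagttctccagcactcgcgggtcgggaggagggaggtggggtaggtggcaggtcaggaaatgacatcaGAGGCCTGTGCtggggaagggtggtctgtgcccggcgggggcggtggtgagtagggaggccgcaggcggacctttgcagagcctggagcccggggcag
Myl12b (chr17:70990467-70990766, minus strand): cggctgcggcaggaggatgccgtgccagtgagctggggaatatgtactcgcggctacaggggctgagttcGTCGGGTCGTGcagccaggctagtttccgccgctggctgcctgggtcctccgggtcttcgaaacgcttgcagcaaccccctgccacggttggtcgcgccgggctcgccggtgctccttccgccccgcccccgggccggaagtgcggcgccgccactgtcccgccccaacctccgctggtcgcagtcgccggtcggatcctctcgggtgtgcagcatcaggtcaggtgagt

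**Figure D3:**
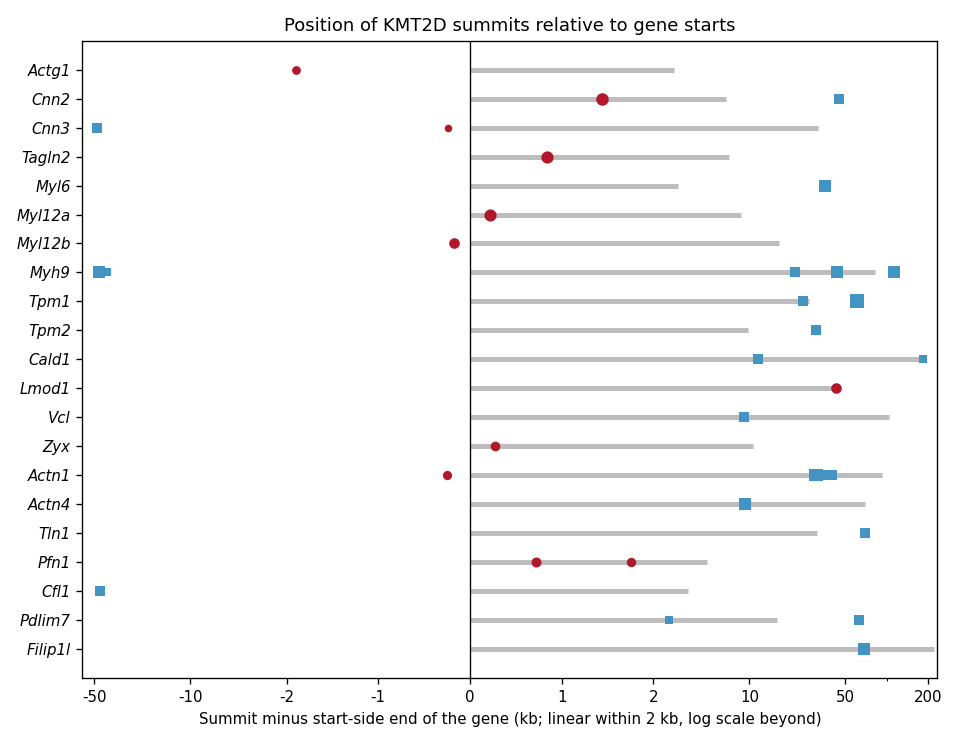
Position of each assigned summit (points, with area in proportion to fold) relative to the start-side end of its gene on the x axis, in kb, linear within 2 kb and logarithmic beyond, for the 21 genes with a peak and a strand; grey bars are the genes, circles gene-end peaks and squares distal peaks. Gene-end summits gathered around the start except that of Lmod1, while the Myh9, Tpm1, Actn1, Actn4, Vcl, Cald1, Pdlim7 and Filip1l genes had summits deeper inside.

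Of the genes for monomer binding and filament turnover, Pfn1 had gene-end peaks. It encodes profilin 1, which delivers actin monomers to growing filament ends. Its summits, 1030 bp apart at chr11:70654978-70655488 and chr11:70655775-70656180, had 30 fragments over 7.81 and 32 over 7.20. The folds were 3.52 (2.41 to 4.97) and 4.03 (2.79 to 5.63), with overlapping intervals. They lay 396 and 1426 bp upstream of the start in the promoter table, but inside the gene as the gene table draws it, 1753 and 723 bp from its outer end. Cfl1, for the filament-severing protein cofilin 1, had 1 distal summit 45325 bp away and 2568 bp from Fosl1, with a fold of 4.67 (3.37 to 6.32). Wdr1, whose product helps cofilin to take filaments apart, had no peak.

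The LIM and PDZ-LIM protein genes had no gene-end peak. Pdlim7, for a PDZ-LIM protein that binds actin structures, had a summit 2605 bp inside its start with a fold of 3.20 (2.03 to 4.81) and a second peak 46853 bp outside, nearer to Grk6. Pdlim5, Fhl1 and Fhl2 had none. Filip1l, the last listed gene, had 1 summit 67659 bp inside the gene with 22 fragments and a fold of 5.31 (3.41 to 7.91). Both listed genes on chromosome X, Flna and Fhl1, were without a peak. On X, 6.96% of 963 protein-coding genes had any assigned peak, against 26.1% on the autosomes, and the part of this difference in the result for Flna and Fhl1 was not tested.

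**Figure D4:**
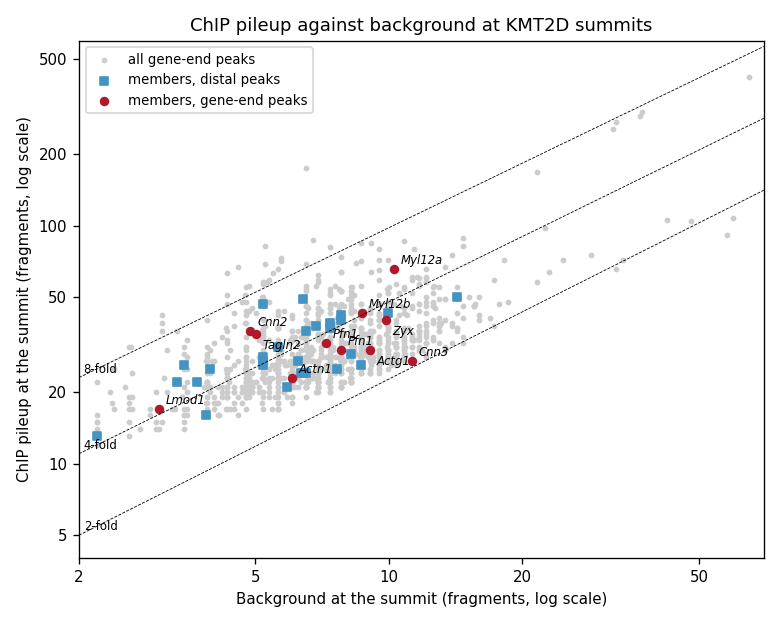
ChIP pileup (y axis, fragments, log scale) against background (x axis, fragments, log scale) at the summits of the listed genes' gene-end peaks (red circles, named) and distal peaks (blue squares), over all gene-end peaks of protein-coding genes (grey). Dashed lines mark equal fold, which is pileup plus 1 over background plus 1; Myl12a stands highest among the named points, with 66 fragments, and Cnn3 farthest to the right of the gene-end points, with a background of 11.2.

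Of the 13 genes with distal peaks only, 8 had at least 1 summit for which they were the nearest protein-coding gene, and 7 of these had it inside the gene: Myh9, Tpm1, Cald1, Vcl, Actn4, Pdlim7 and Filip1l. The eighth was Actb. For the other 5, Tagln, Myl6, Tpm2, Tln1 and Cfl1, every summit within 50 kb lay nearer to another protein-coding gene. With peaks given to the nearest gene only, the 10 genes with a gene-end peak were all retained and 8 had distal peaks only.

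Related genes differed in whether their start carried a peak. Of 7 widely expressed family members, Actb, Actg1, Cnn2, Cnn3, Tagln2, Myl12a and Myl12b, 6 had a start peak. Of 5 smooth muscle markers, Acta2, Cnn1, Tagln, Myl9 and Lmod1, none had a start peak and 3 had no peak at all. Lmod1 had its gene-end peak at the finish, and no relative of it is among the 7. Of the start peaks, that of Cnn3 had a −log10 q of only 1.497. The Actg1 summit lay nearer to a long non-coding RNA gene than to Actg1. Among all protein-coding genes, 5.08% had a gene-end peak and 75.1% had no peak, so a marker without a peak is not unusual. For the start alone, 4.72% of 17492 protein-coding genes with a listed start had a summit within 2 kb of it. With a gene-end window of 1 kb, Actg1 and Cnn2 no longer had a gene-end peak. These groups were put together after the peaks were seen, and they leave out Myl6 and Myh9, which are also widely expressed and had distal peaks only, and Tpm3 and Tpm4, which had no peak. Listed genes of other families without a start peak, such as Vcl, Actn4, Tln1, Cfl1, Flna and Wdr1, are left out as well. The counts therefore describe the genes named and were not tested.

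CArG boxes were sought in the promoter windows because SRF binds them. Actb and Tagln had no promoter window and were not searched. A CArG box is a run of 6 A or T bases between CC and GG, which reads as the same pattern on both strands. Of 32 listed genes with a window (39 windows), 9 had at least 1 exact box (28.1%), against 1.76% of 17492 protein-coding genes with a window (307 genes). With up to 1 mismatch, 18 of 32 had one (56.3%), against 22.5% of all. The genes were chosen by name with their roles known, so these shares are a description. Of the 9 genes with an exact box, 2 had a gene-end peak (Actg1 and Cnn2), 3 had distal peaks only (Myl6, Vcl and Filip1l) and 4 had no peak (Srf, Myl9, Fhl1 and Fhl2). Boxes were sought in the promoter windows alone, and of these only the windows of Cnn3, Zyx and Myl12b held a summit. The sequence under the other summits was not read, so whether they lie at a box is not known. No summit lay at an exact box found in a window. The shortest distance from any of the 11 boxes to a summit was 1494 bp, in Cnn2, and the next was 1815 bp, in Actg1. In Vcl it was 9397 bp. These distances are for exact boxes. In Myl12a a box with 1 mismatch begins 18 bases before the start, and the summit lay 214 bp downstream of the start. Of the 10 genes with a gene-end peak, 2 held an exact box (20%), and of the 22 others 7 did (31.8%), too few genes to compare.

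The boxes of the 6 genes not shown above are given with 10 bases on either side, the box in capitals. Fhl1, Fhl2, Myl6 and Filip1l each have more than 1 listed start, and Fhl2 has a box at each of its starts. The boxes begin between 31 (Fhl2) and 227 (Vcl) bases before a start, and the same 10 letters occur in Cnn2, Vcl and Filip1l.
Myl9 (chr2:156775303-156775312, plus strand): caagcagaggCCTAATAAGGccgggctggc
Myl6 (chr10:128493050-128493059, minus strand): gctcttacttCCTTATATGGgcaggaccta
Vcl (chr14:20929171-20929180, plus strand): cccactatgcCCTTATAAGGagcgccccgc
Fhl1 (chrX:56779581-56779590, plus strand): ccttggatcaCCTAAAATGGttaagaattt
Fhl2 (chr1:43196848-43196857, minus strand): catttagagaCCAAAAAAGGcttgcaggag
Fhl2 (chr1:43163983-43163992, minus strand): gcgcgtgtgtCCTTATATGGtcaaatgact
Filip1l (chr16:57549180-57549189, plus strand): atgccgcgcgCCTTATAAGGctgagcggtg

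**Figure D5:**
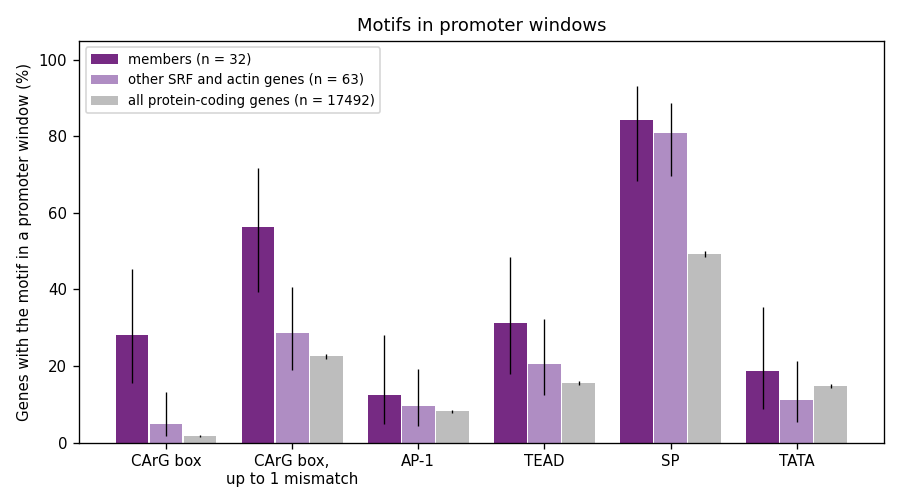
Share of genes (y axis, %) whose promoter window, or any of them where a gene has several, holds each motif on either strand, for the 32 listed genes, 63 other SRF and actin genes and 17492 protein-coding genes with a window; error bars are Wilson 95% intervals, which cover counting error only. An exact CArG box stood in 28.1%, 4.76% and 1.76% of these, and the SP motif in 84.4%, 81.0% and 49.2%.

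Other motifs were sought in the same windows on both strands. TGANTCA, the AP-1 motif, stood in windows of 4 of the 32 genes (12.5%, against 8.12% of all), in Zyx, Myl12a, Actn4 and Cald1. CATTCC or its reverse GGAATG, the core of the TEAD motif, stood in 10 (31.3%, against 15.5%), and the GC box of SP factors, GGGCGG or CCGCCC, in 27 (84.4%, against 49.2%). TATAAA stood in 6 (18.8%, against 14.8%), and in none of the 10 genes with a gene-end peak, against 9.96% of all 904 protein-coding genes with such a peak. None of the 11 exact CArG boxes overlapped one of these motifs. The GC box stood in all 10 listed genes with a gene-end peak, and in 72.1% of all 904 protein-coding genes with such a peak. By the window richest in G and C where a gene has several, the listed genes had a median G and C content of 66.2% against 57.3% in all and 64.5% in all genes with a gene-end peak, a base composition that moves with the SP counts and whose part in them was not tested.

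Around these genes, 79 others of the pathway were examined that were listed by their role or family. Of these, 9 had a gene-end peak (11.4%), 24 had distal peaks only (30.4%) and 46 had none. The shares of all protein-coding genes were 5.08%, 19.8% and 75.1%. The listed genes, chosen with their peaks known, are not among the 79. The shares of the 79 therefore give no fair comparison with those of the listed genes. The median length of the 79 genes was 34149 bp, against 17219 bp for all, and the part of length in these shares was not tested. Among the gene-end peaks of these genes, Fscn1 had the highest fold, 5.57 (4.17 to 7.29), 975 bp upstream of its start. Fhl3, a LIM protein gene, followed with 4.93 (3.79 to 6.31), at its finish. Rock2, for a kinase that activates myosin II below RhoA, had 4.68 (3.28 to 6.48), 404 bp upstream. Mrtfb, for one of the actin-regulated SRF cofactors, had 4.09 (2.70 to 5.97), with its summit 39 bp downstream of the start. Capza2, for a filament capping protein subunit, had 3.90 (2.20 to 6.46), at its finish. Pxn (paxillin) had 3.22, Vasp, for a filament elongation factor, 3.15, Itgb1 (integrin beta 1) 2.74 and the GTPase gene Rhoa 2.61. The intervals of Fscn1 and Itgb1 did not overlap. Of the other SRF cofactor genes, Mrtfa, Myocd, Elk1 and Elk4 had no peak and Elk3 had distal peaks only.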

How the data were processed

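One KMT2D ChIP library and 1 input library of wild-type HT22 cells were compared through a list of 3738 peaks, 3706 of them on chromosomes 1 to 19, X and Y. Per the submitters' processing notes, Bowtie2, Picard and MACS2 were used with the build mm10. The sources used here give neither versions nor settings of these tools. As for units, the deposited fold is the authors' ratio of ChIP pileup plus 1 to background plus 1 at a summit, and each peak has a deposited −log10 p-value, a deposited −log10 q-value and a deposited score, the last of which was not used. Library totals are not in the list, so depth was read from pileups.

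From the fold and the p-value, the whole pileup and the background were solved within 0.001 of the −log10 p for 3690 peaks (98.7%), including all 38 described here. Each interval on a fold is the exact 95% Poisson interval of the solved pileup, taking the background as known. Pileups were counted without molecular identifiers, so intervals cover counting error only.

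Genes came from RefSeq on GRCm38.p6 (49595 of 49997 rows on main chromosome sequences, 21774 protein-coding), and strand, starts and promoter sequences from the matching RefSeq promoter table (32 of 34 listed genes matched). A summit counted at an end within 2 kb and as distal when inside the gene or within 50 kb. No test was run. The genes, lists, motifs and windows were chosen with earlier results of these data known. Named genes were all 34, the 9 of 79 pathway genes with a gene-end peak, and nearer neighbours of a peak. Rhoa, the promoter windows of Zyx, Myl12b and Cnn3, the SRF cofactor genes without a gene-end peak, the smooth muscle grouping and the X chromosome values were chosen after their values were seen. Python 3.11.15, numpy 2.4.6, pandas 2.3.3 and scipy 1.17.1 were used, and the procedures were tested on simulated data.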

Additional observations from a re-analysis of the deposited data

How the results depend on the processing

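Most of the 64 alternative values (52) stayed close to the ones reported. Close means counts within 1.5 times, or medians within the exact binomial 95% interval of the median. These limits are wide, and peaks are not replicates. The intervals ran from 3.08 to 6 for gene-end and from 3.5 to 4.91 for distal peaks. A gene-end median of 5.95, with −log10 q at or above the median, thus counted as close. So did 16 genes with no peak (11 reported), with a reach of 20 kb. Leaving out peaks of background above 20 could not move values of the listed genes, whose backgrounds reached at most 14.3. Peak thresholds moved the counts most. With −log10 q at or above the median of the list, 5 genes had a gene-end peak (1.72% of all protein-coding genes) and 18 had no peak, and 3 of the 79 other genes had a gene-end peak. Among peaks from the 75th percentile of fold upwards, 3 had one (Cnn2, Tagln2 and Myl12a; 0.657% of all), 4 had distal peaks only, 27 had none, the median fold of the distal peaks was 6.75 and 0 of the 79 other genes had one. Fewer peaks enter under these thresholds by construction. Distal peaks only were seen in 8 genes (23.5%) with a reach of 20 kb, against 10.6% of all, and in 8 (23.5%) with peaks given to the nearest gene, against 6.24% of all. CArG boxes stood in 2 (exact) and 4 (up to 1 mismatch) of the 10 genes with a gene-end peak, against 9 and 18 of all 32. Windows of 1 kb and 5 kb gave 8 and 12 genes with a gene-end peak (3.94% and 7.06% of all), and leaving out peaks at small RNA genes gave 10 (4.86% of all). Without the peaks at small RNA genes, 10 genes had distal peaks only (29.4%, against 19.1% of all), where 13 were reported. In that setting 14 had no peak, where 11 were reported. No paired analysis was possible because each group has 1 library, and for the same reason no replicate could be left out. Pileups of 13 to 66 fragments limit how far folds of single peaks can be told apart.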
